A study of Mus musculus with 8 samples.

Results

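The 9 genes described here encode inhibitors of mTORC1, the protein kinase complex that couples nutrients and growth signals to protein synthesis: the sestrin genes Sesn1, Sesn2 and Sesn3, the stress gene Ddit4, the tuberous sclerosis genes Tsc1 and Tsc2, the mTOR-binding inhibitor gene Deptor, and Eif4ebp1 and Eif4ebp2, which encode the eIF4E-binding proteins (4E-BPs). They were taken by name, with earlier results of these data known, and all 9 were among the 13227 genes of the deposited counts. The libraries came from hearts of FVB/N mice aged 3 months, all labelled male, 1 heart each. The control group was 4 non-transgenic (NTG) hearts, lettered A, B, D and E, and the other group 4 hearts carrying a FASTKD1 transgene (TG), lettered A, B, C and E. FASTKD1 is a mitochondrial RNA-binding protein. The series title calls its overexpression cardiac-specific; the sources used here give neither the promoter that drives the transgene nor the number of founder lines. Nothing in the labels beyond the heart letters says how the animals were related, so p-values measure the spread between these 8 hearts.

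As background, mTORC1 is switched on at the lysosome by the small GTPase Rheb once amino acids have brought the complex there through the Rag GTPases. Sestrins hold back the amino acid branch by binding GATOR2, and SESN2 is a leucine sensor. The protein of Ddit4, also called REDD1, acts through the TSC1-TSC2 complex, which turns Rheb off. DEPTOR binds mTOR itself, and the 4E-BPs, which mTORC1 phosphorylates, hold the cap-binding protein eIF4E away from translation initiation. In heart muscle this pathway is known for its part in growth and in the control of autophagy.

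Of the 9 brake genes, 2 rose in transgenic hearts, 0 fell and 7 did not pass the test (edgeR quasi-likelihood test, adjusted p under 0.05 over all 13226 genes tested). Over all genes, 1.01% rose and 0.242% fell, 1.25% in all. Sesn2 went from 2.77 ± 0.83 to 11.7 ± 1.24 CPM and Deptor from 15.9 ± 1.53 to 28.8 ± 2.74 CPM (SD, n = 4 each; CPM is a gene's counts scaled to a common library size, here after TMM scaling). The groups did not overlap for 4 of the 9, Sesn2, Deptor, Ddit4 and Eif4ebp1, each with the transgenic hearts higher, as was the case for 4.58% of all genes. The median log2 fold change was 0.31 over the 9 genes and 0.01 over all genes. At an unadjusted p under 0.05, 4 of the 9 passed, against 10.7% of all genes. Because the genes were chosen with earlier results of these data known, these shares are descriptions and give no independent support.

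**Figure D1:**
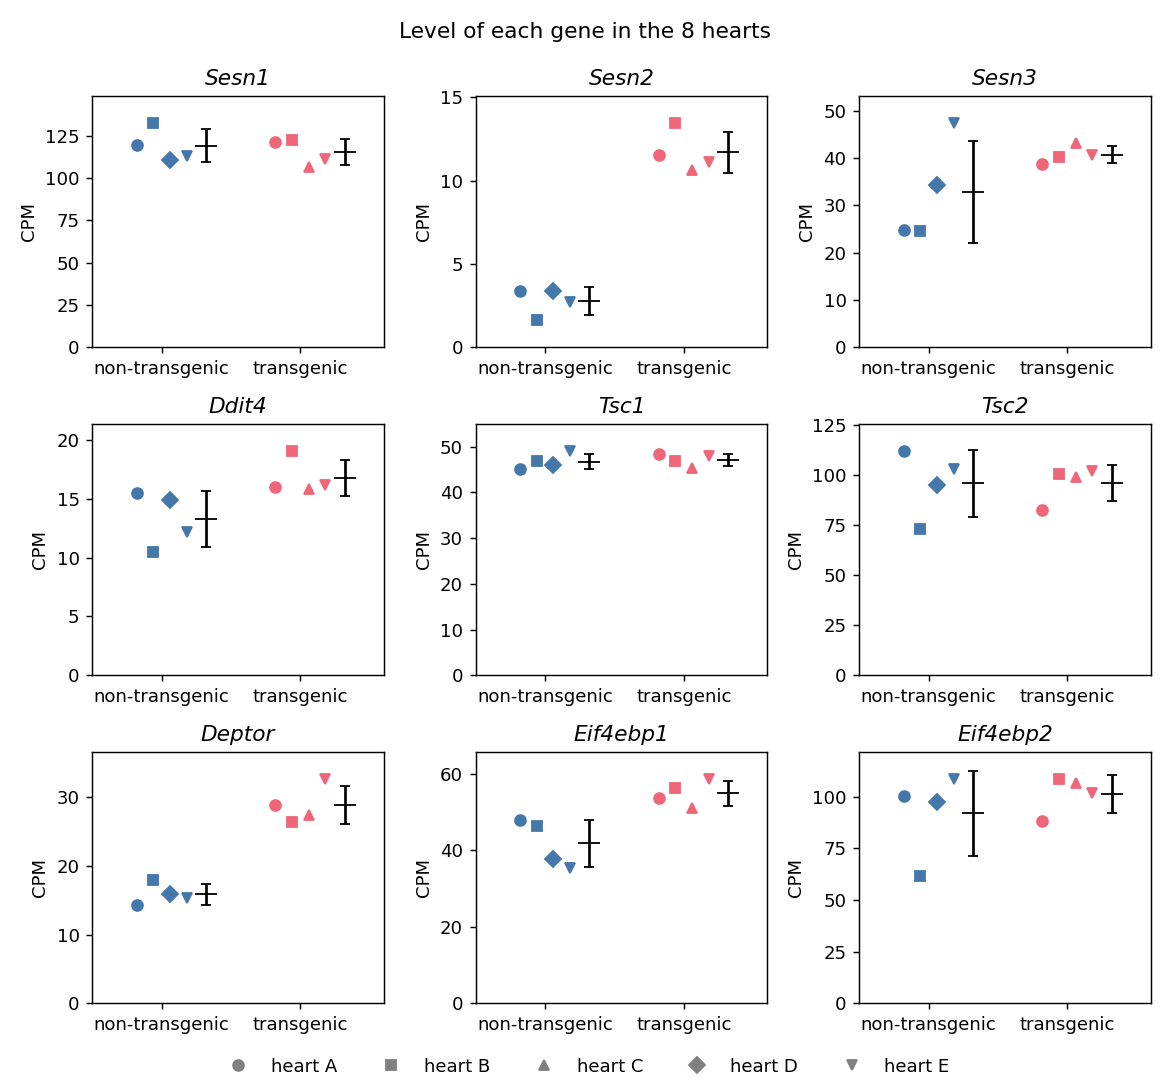
CPM (vertical axes, from 0) of each brake gene in 4 non-transgenic and 4 transgenic hearts; each symbol is 1 heart, its shape the heart letter, and the bar at the right of each group is the mean with its SD. The transgenic hearts lie above all non-transgenic hearts for Sesn2, Deptor, Ddit4 and Eif4ebp1, and the groups overlap for the other genes.

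Total counts ran from 44584359 to 55769859 per library, and each brake gene had at least 63 counts in every library. Fastkd1, the check of the genotype labels, stood at 8845 to 11516 CPM in transgenic hearts and at 26.3 to 33.8 CPM in NTG hearts A, B and E. NTG heart D, by its label a control and male, had 192 CPM of Fastkd1, and its counts of 4 Y-linked genes (Uty, Kdm5d, Eif2s3y and Ddx3y) were 0, where the other 7 libraries had 10372 to 15914. TG heart A had a summed 3096 CPM of the 5 atrial marker genes analysed (Myl4, Myl7, Nppa, Sln and Stard10), NTG heart D 598 CPM, and the other 6 hearts 29.2 to 263 CPM. How much atrial tissue each sample held was not tested. Values with NTG D and TG A both left out are given below. Cardiomyocyte markers (Myh6, Actc1, Tnnt2, Tnni3, Ryr2 and Pln) were abundant in every library. They summed to 51465 to 58015 CPM in non-transgenic and 43182 to 44270 CPM in transgenic hearts, with 0 of the 6 past the threshold. Their log2 fold changes ran from -0.57 for Pln to -0.0052 for Ryr2, with a median of -0.36. The groups did not overlap for 4 of the 6, against 7.38% of all genes. Endothelial markers summed to 1115 to 1389 and 973 to 1075 CPM, also with 0 of 6 past the threshold. Most of that difference was Fabp4, at 550 ± 141 and 382 ± 18.95 CPM (SD, n = 4 each). Kdr had a log2 fold change of -0.13, and Pecam1, Cdh5, Egfl7 and Tie1 had -0.06 to -0.02. Of the smooth muscle and pericyte markers, Acta2, smooth muscle actin, stood at 131 ± 30.5 and 267 ± 75.4 CPM (SD, n = 4 each) without overlap (log2 fold change 1.03, adjusted p = 0.0505), and the list of 5 tested summed to 644 to 1060 and 773 to 1023 CPM. The 4 blood markers tested, which include the globin genes Hba-a1 and Hbb-bs, summed to 344 to 771 and 290 to 402 CPM, with a median log2 fold change of -0.67 and 0 past the threshold. In RNA from heart tissue, fewer cells of a type and less RNA per cell cannot be told apart. The part of cell composition in the results below was not tested.

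Among the sestrins, Sesn2 alone passed the test. Sesn2 (ENSMUSG00000028893; GRCm38 chromosome 4, 132492032 to 132510501, minus strand) stood at 3.38, 1.61, 3.37 and 2.72 CPM in NTG hearts A, B, D and E. In TG hearts A, B, C and E it stood at 11.6, 13.5, 10.7 and 11.1 CPM. The lowest transgenic heart was thus well above the highest non-transgenic heart, and NTG heart B was the lowest of all. The log2 fold change was 2.07 (SE 0.21; 95% interval 1.605 to 2.54; adjusted p = 0.000517), a 4.2-fold rise. By p, Sesn2 was number 43 of all genes tested, and by fold number 41 of the 133 genes that rose. It stayed past the threshold without each single heart (log2 fold change 1.89 to 2.18), and was at 2.19 (SE 0.24) with NTG D and TG A both left out.

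Sesn1, a p53 target known to be abundant in striated muscle, showed no such difference (ENSMUSG00000038332; chromosome 10, 41809935 to 41908424, plus strand). Its level was 119, 133, 111 and 113 CPM in NTG hearts A, B, D and E and 121, 123, 107 and 112 CPM in TG hearts A, B, C and E. The groups overlapped, with a log2 fold change of -0.04 (95% interval -0.25 to 0.16; adjusted p = 0.919). In percent, the interval runs from -15.7 to 11.8.

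Sesn3, a FoxO target in other tissues (ENSMUSG00000032009; chromosome 9, 14275067 to 14333101, plus strand), differed most among the non-transgenic hearts. It stood at 24.7, 24.6, 34.4 and 47.4 CPM in NTG hearts A, B, D and E, a coefficient of variation of 32.9%, and at 38.8, 40.3, 43.0 and 40.7 CPM in TG hearts A, B, C and E, a coefficient of 4.36%. Heart E of the non-transgenic group was above every transgenic heart and the other 3 were below them all. Its log2 fold change was 0.31 (95% interval -0.12 to 0.74; adjusted p = 0.645), and without NTG heart E it was 0.53 (adjusted p = 0.184). Leaving out NTG heart A or NTG heart B instead gave 0.20 in each case (adjusted p = 0.834 and 0.755).

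Per kilobase of annotated exon, which allows levels to be set between genes, Sesn1 made up most sestrin mRNA in both groups. Its share of the summed sestrin level was 88.0 to 94.1% in non-transgenic and 82.0 to 83.9% in transgenic hearts. The share of Sesn2 was 2.98, 1.31, 3.12 and 2.43% in NTG hearts A, B, D and E and 9.14, 10.4, 9.38 and 9.46% in TG hearts A, B, C and E. In level per kilobase, Sesn2 was below Sesn3 in every non-transgenic heart (0.464 to 0.972 against 1.61 to 3.105 CPM per kb) and above it in every transgenic heart (3.07 to 3.88 against 2.54 to 2.82 CPM per kb). The summed sestrin level overlapped between the groups, at 31.1 to 35.4 and 32.7 to 37.3 CPM per kb. These shares are descriptions without a test, and they use the union of all annotated exons, 15.27 kb for Sesn3 and 3.48 kb for Sesn2, which understates the level of a gene whose long exons are little used in heart.

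**Figure D2:**
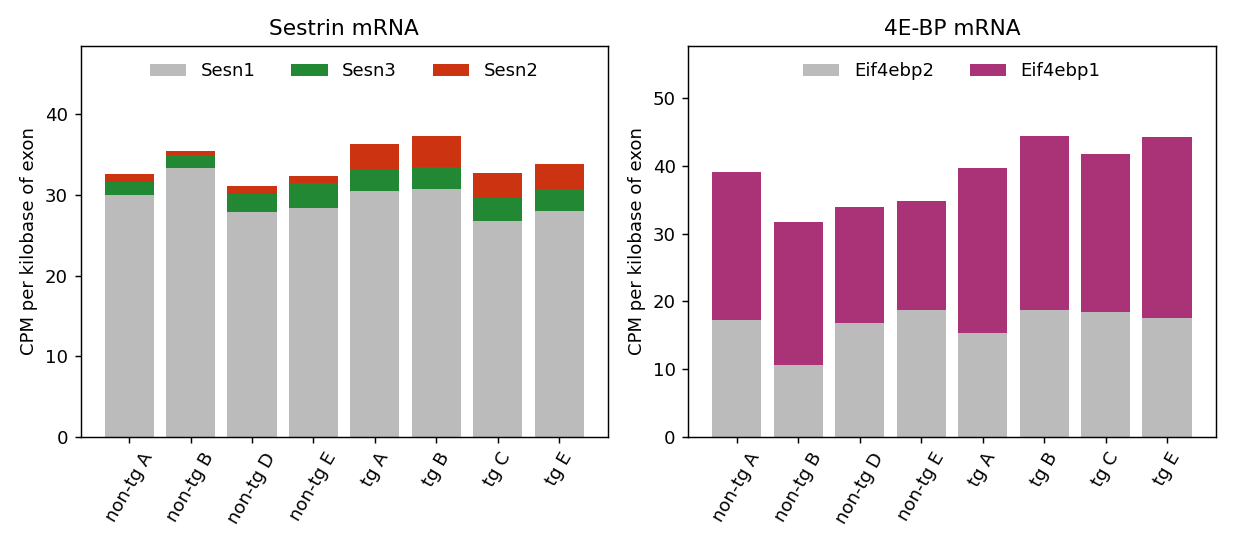
Stacked bars of sestrin mRNA (left) and 4E-BP mRNA (right) in each of the 8 hearts, in CPM per kilobase of exon; non-tg is non-transgenic, tg is transgenic, and colours are genes. The Sesn2 segment is 1.31 to 3.12% of the sestrin bar in non-transgenic and 9.14 to 10.4% in transgenic hearts, and the 4E-BP bars reach 31.7 to 39.2 and 39.8 to 44.4 CPM per kb.

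Ddit4 is induced by hypoxia, glucocorticoids and stress in many tissues (ENSMUSG00000020108; chromosome 10, 59949669 to 59951834, minus strand). It stood at 15.5, 10.5, 14.9 and 12.1 CPM in NTG hearts A, B, D and E and at 15.98, 19.1, 15.8 and 16.1 CPM in TG hearts A, B, C and E. The groups did not overlap, but the highest non-transgenic and the lowest transgenic heart were 15.5 and 15.8 CPM. For Ddit4 the log2 fold change was 0.34 (SE 0.14; 95% interval 0.03 to 0.64) and the adjusted p = 0.415, so Ddit4 did not pass. Its paralog Ddit4l, which encodes REDD2, stood at 1.499 ± 0.27 and 1.78 ± 0.651 CPM (SD, n = 4 each; adjusted p = 0.818).

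Sesn2 and Ddit4 are both listed among genes that ATF4, the transcription factor of the integrated stress response, can induce, and their promoters are shown because one gene passed the test and the other did not. RefSeq promoter entries (GRCm38.p6) were found for 7 of the 9 genes, and not for Deptor or Eif4ebp1. The stretches below lie upstream of both the RefSeq and the GENCODE start sites and read 5′ to 3′ on the minus strand. Capitals mark CCAAT boxes, here on the opposite strand as ATTGG, and the hypoxia response element core ACGTG.
Sesn2, chr4:132510502-132510706: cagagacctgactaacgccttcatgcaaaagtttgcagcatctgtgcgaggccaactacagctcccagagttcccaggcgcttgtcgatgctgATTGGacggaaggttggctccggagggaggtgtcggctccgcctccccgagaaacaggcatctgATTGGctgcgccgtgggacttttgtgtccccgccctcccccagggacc
Ddit4, chr10:59951835-59952020: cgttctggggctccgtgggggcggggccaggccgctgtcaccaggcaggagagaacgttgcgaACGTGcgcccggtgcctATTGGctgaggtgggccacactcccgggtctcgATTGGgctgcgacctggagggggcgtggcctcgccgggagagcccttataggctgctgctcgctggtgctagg

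In the 250 bases before the RefSeq start, each on both strands, 6 motifs were searched. The core of the C/EBP-ATF response element that ATF4 binds, TGATGNAA, was in 0 of the 7 genes' windows and in 3.45% of all 32851 windows of that length. For 7 genes, 0 is near that share. Deptor and Eif4ebp1, without an entry, were not searched. The cyclic AMP response element TGACGTCA, the forkhead motif GTAAACA and the TATA box TATAAA were likewise in 0 of the 7, against 1.55, 3.17 and 12.4% of all windows. CCAAT, added to the search after these sequences were seen, matched the Sesn2 window 157 and 93 bases and the Ddit4 window 170 and 137 bases upstream of the RefSeq start, and was in 33.8% of all windows. It was also in the Sesn3 window, with 4 matches, and at both Sesn1 starts, so 4 of the 7 genes held it. ACGTG was found 187 bases upstream of the Ddit4 start and also in the Eif4ebp2 window, against 16.6% of all windows. It does not overlap the CCAAT boxes. For comparison, 7 of 21 other ATF4 and CHOP response genes with an entry held TGATGNAA. The brake genes and the comparison genes were counted by gene, with a match in any of its windows. The shares of all windows were counted by window, so these shares are not like for like. These matches are descriptions of letters in a short window. Elements farther away, or in introns, were not searched.

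Tsc1 and Tsc2, whose proteins together form the GTPase-activating complex that turns Rheb off, differed little between groups. Tsc1 (ENSMUSG00000026812; chromosome 2, 28641228 to 28691167, plus strand) was the steadiest of the 9, at 45.1 to 49.0 CPM in non-transgenic and 45.3 to 48.3 CPM in transgenic hearts. Its log2 fold change was 0.01 (95% interval -0.15 to 0.17; adjusted p = 0.974), an interval of -9.83 to 12.7 in percent. Tsc2 (ENSMUSG00000002496; chromosome 17, 24595816 to 24632630, minus strand) stood at 112, 73.0, 95.3 and 103 CPM in NTG hearts A, B, D and E and at 82.5, 101, 99.4 and 102 CPM in TG hearts A, B, C and E. The low hearts were non-transgenic B and transgenic A, the latter the heart with the high atrial markers, whose part in this value was not tested. The log2 fold change of Tsc2 was 0.0036 (95% interval -0.30 to 0.30; adjusted p = 0.996), 0.07 without TG heart A and -0.11 without NTG heart B. Exons of Pkd1 on the other strand share 693 bases with Tsc2, 7.2% of its exon length, and reads there cannot be assigned if strand was not used in counting.

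Deptor, the inhibitor that binds mTOR, was the other gene that rose (ENSMUSG00000022419; chromosome 15, 55112317 to 55259271, plus strand). It stood at 14.3, 17.9, 15.8 and 15.3 CPM in NTG hearts A, B, D and E. In TG hearts A, B, C and E it stood at 28.8, 26.3, 27.3 and 32.6 CPM. Every transgenic heart was above every non-transgenic heart, and the coefficient of variation was under 10% in each group (9.64 and 9.52%). Between groups, the log2 fold change was 0.86 (SE 0.11; 95% interval 0.62 to 1.095; adjusted p = 0.00193), a 1.81-fold rise. Deptor was number 69 of all genes by p and number 96 by fold of the 133 that rose. Without each single heart it stayed past the threshold, with a log2 fold change of 0.78 to 0.92, and with NTG D and TG A both left out it was 0.86 (SE 0.13). With a block on heart letters Deptor had 0.88 (SE 0.15) and did not pass (edgeR adjusted p = 0.0507). A non-coding gene on the other strand, Gm9920, not analysed here, shares 303 bases (3.41%) of the Deptor exons. Mtor itself stood at 70.6 ± 10.8 and 68.1 ± 0.522 CPM (SD, n = 4 each; adjusted p = 0.919). The ratio of Deptor to Mtor per kilobase was 0.194, 0.309, 0.306 and 0.238 in NTG hearts A, B, D and E. It was 0.484, 0.442, 0.459 and 0.538 in TG hearts A, B, C and E, given without a test. The groups did not overlap, but the ratio holds the same Deptor values and is no separate result.

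**Figure D3:**
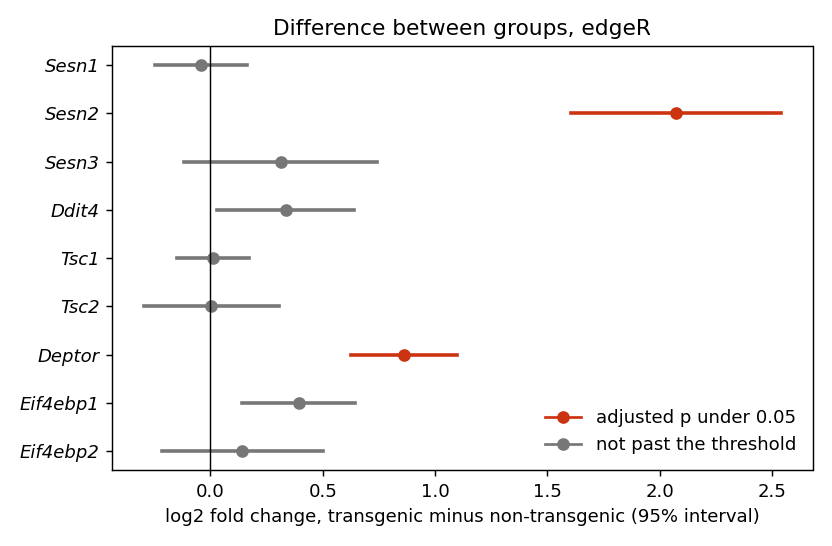
Log2 fold change of each brake gene, transgenic minus non-transgenic (horizontal axis), with its 95% interval from the edgeR test; red marks an adjusted p under 0.05. The intervals of Sesn2 and Deptor start at 1.605 and 0.62, those of Ddit4 and Eif4ebp1 start above 0 without passing the adjusted threshold, and the other 5 include 0.

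Of the 4E-BP genes, neither passed the test. Eif4ebp1, another gene known as an ATF4 target (ENSMUSG00000031490; chromosome 8, 27260329 to 27276674, plus strand), was at 48.0, 46.3, 37.7 and 35.4 CPM in NTG hearts A, B, D and E and at 53.7, 56.3, 51.0 and 58.7 CPM in TG hearts A, B, C and E. The groups did not overlap, with NTG hearts D and E the lowest. The log2 fold change was 0.39 (SE 0.11; 95% interval 0.14 to 0.64), a 31.3% higher level, and the adjusted p = 0.192 did not pass. Scaled by library totals only, in place of TMM, it passed (log2 fold change 0.48, adjusted p = 0.0344). That scaling moved the median of all genes to 0.08. With DESeq2, Eif4ebp1 had 0.39 and came just short of the threshold (DESeq2 adjusted p = 0.0529). With limma-voom it had 0.41 (limma-voom adjusted p = 0.179).

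Eif4ebp2 (ENSMUSG00000020091; chromosome 10, 61428491 to 61452661, minus strand) stood at 100.1, 61.7, 97.4 and 108 CPM in NTG hearts A, B, D and E and at 88.4, 109, 107 and 102 CPM in TG hearts A, B, C and E. Non-TG heart B was far below the rest, and the groups overlapped. Its log2 fold change was 0.14 (95% interval -0.22 to 0.50; adjusted p = 0.833), and -0.01 (adjusted p = 0.983) without that heart. Per kilobase, Eif4ebp1 was 46.3 to 66.4% of 4E-BP mRNA in non-transgenic and 55.7 to 61.6% in transgenic hearts. The summed 4E-BP level was 39.2, 31.7, 34.0 and 34.9 CPM per kb in NTG hearts A, B, D and E and 39.8, 44.4, 41.7 and 44.3 CPM per kb in TG hearts A, B, C and E, where NTG heart A came within 1 CPM per kb of the lowest transgenic heart. Eif4e, the cap-binding protein they hold, stood at 160 ± 26.9 and 137 ± 10.5 CPM (SD, n = 4 each; adjusted p = 0.598). The ratio of the summed 4E-BP level to Eif4e per kilobase was 0.991 to 1.56 in non-transgenic and 1.61 to 2.15 in transgenic hearts, given without a test.

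Non-TG heart B held the lowest value of its group for Sesn2, Ddit4, Sesn3, Tsc2 and Eif4ebp2 and the highest for Sesn1 and Deptor. It also had the highest share of mitochondrially encoded counts, 30.1% against 18.6 to 27.0% in the other 7 hearts, and the lowest TMM factor, 0.853. The part of these in its values was not tested. Without heart B the log2 fold changes were 1.89 for Sesn2, 0.92 for Deptor, 0.24 for Ddit4 and 0.44 for Eif4ebp1, with adjusted p of 0.000172, 0.00154, 0.427 and 0.122. With NTG D and TG A both left out, Ddit4 had a log2 fold change of 0.42 (adjusted p = 0.249) and Eif4ebp1 0.36 (adjusted p = 0.248). In that fit Sesn3 had 0.36 (adjusted p = 0.462), Eif4ebp2 0.23 (adjusted p = 0.544), Sesn1 -0.10 (adjusted p = 0.651), Tsc2 0.07 (adjusted p = 0.842) and Tsc1 -0.0087 (adjusted p = 0.975). Among transgenic hearts, heart B had the highest Sesn2 and Ddit4 and heart E the highest Deptor and Eif4ebp1.

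By level per kilobase in non-transgenic hearts, the order was Sesn1 at 29.9 ± 2.46, Eif4ebp1 at 19.1 ± 2.83, Eif4ebp2 at 15.9 ± 3.57, Tsc2 at 9.98 ± 1.75, Ddit4 at 7.56 ± 1.34, Tsc1 at 3.95 ± 0.143, Sesn3 at 2.15 ± 0.707, Deptor at 1.79 ± 0.172 and Sesn2 at 0.797 ± 0.239 CPM per kb (SD, n = 4). The ranges of hearts overlapped between Eif4ebp1 and Eif4ebp2, between Eif4ebp2 and Tsc2, between Tsc2 and Ddit4 and between Sesn3 and Deptor, so the order within those pairs is not clear of the spread. In transgenic hearts Sesn2 was at 3.37 ± 0.356 and Deptor at 3.24 ± 0.309 CPM per kb (SD, n = 4 each), above Sesn3 at 2.66 ± 0.116 and below Tsc1 at 3.98 ± 0.115 CPM per kb. The range of Sesn2 overlapped those of Deptor and Tsc1.

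The other genes of the pathway were described by 5 lists of 96 genes, of which 95 were tested. By the edgeR test 0 of them rose and 0 fell, which is near the share of 1.25% called in either direction over all genes. At an unadjusted p under 0.05, 9 were higher and 4 lower, or 13.7% against 10.7% of all genes. DESeq2 called 2 of the 95, against 3.09% of all genes to which it gave an adjusted p: the kinase gene Gsk3b higher and the lysosomal transcription factor gene Mitf lower. The median log2 fold change over the 95 was 0.03. The groups did not overlap for 11 of them (11.6%), against 7.38% of all genes.

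Among 12 genes of the mTOR complexes and the switch Rheb, the smallest p was that of Tti1, a factor for assembling mTOR complexes, with 37.5 ± 5.69 and 30.1 ± 0.701 CPM (SD, n = 4 each; adjusted p = 0.322). Akt1s1, which encodes PRAS40, another mTORC1 inhibitor, had a log2 fold change of 0.27 (adjusted p = 0.435), and Rheb -0.06 (adjusted p = 0.879). Among 27 genes of amino acid sensing, which holds the GATOR complexes that sestrins act on, the smallest p was that of the Rag GTPase gene Rragc, at 48.3 ± 4.23 and 56.8 ± 1.18 CPM (SD, n = 4 each; adjusted p = 0.340). Depdc5, a GATOR1 subunit, had a log2 fold change of 0.12 (adjusted p = 0.665).

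Of 20 genes upstream of the TSC complex, Gsk3b came first, at 65.5, 62.3, 74.6 and 79.2 CPM in NTG hearts A, B, D and E and 85.9, 91.4, 90.8 and 94.3 CPM in TG hearts A, B, C and E. The groups did not overlap, and the adjusted p = 0.139. In this list Igf1r, the IGF1 receptor, had a log2 fold change of 0.47 (adjusted p = 0.328), which became 0.64 (adjusted p = 0.0462) without NTG heart D. Prkab1, an AMPK subunit, had -0.35 (adjusted p = 0.220), and -0.42 (adjusted p = 0.0439) without NTG heart B. Of 19 genes of cap-binding translation and S6 kinase, the smallest p was that of Grb10, an insulin receptor adaptor that mTORC1 phosphorylates (0.35, adjusted p = 0.257). Of 17 genes of autophagy and lysosome control, Mitf came first, at 78.2 ± 7.31 and 60.9 ± 4.18 CPM (SD, n = 4 each; adjusted p = 0.133), with non-overlapping groups.

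**Figure D4:**
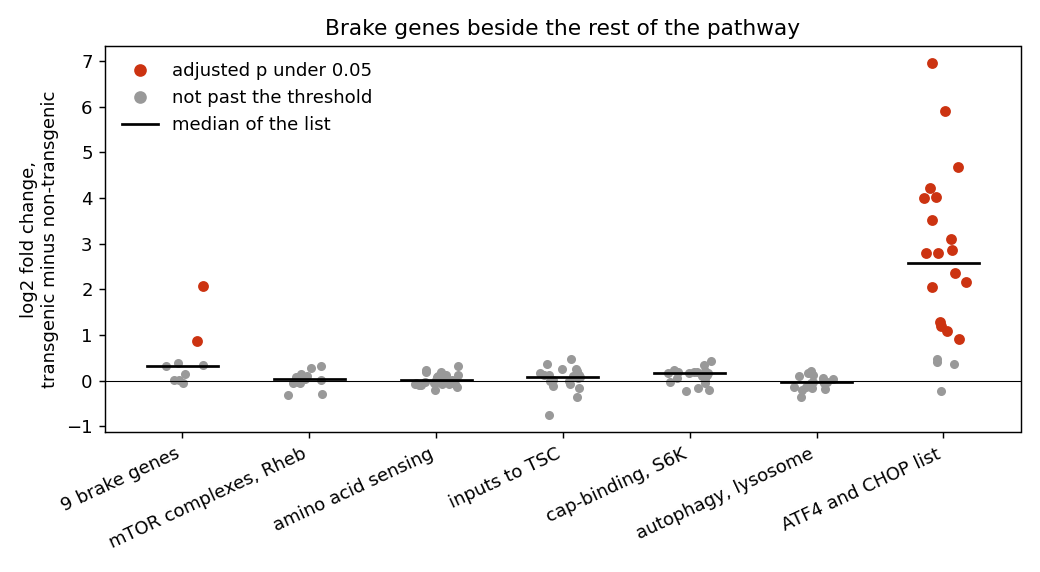
Log2 fold change, transgenic minus non-transgenic (vertical axis), of every tested gene of the 9 brake genes, the 5 pathway lists and the ATF4 and CHOP list; each dot is 1 gene, red marks an adjusted p under 0.05 and the black line is the median. In the pathway lists 0 of 95 dots are red, in the brake genes 2 of 9, and in the ATF4 and CHOP list 18 of 22, with medians of 0.03, 0.31 and 2.57. Over all genes tested, 1.25% had an adjusted p under 0.05. The brake genes and the lists were chosen with earlier results of these data known.

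Genes that share known regulators with the brakes were counted in the same fit, where 1.01% of all genes rose and 1.25% passed in either direction. Of 22 other genes of the ATF4 and CHOP response, 18 rose, 0 fell and 4 did not pass, with a median log2 fold change of 2.57. Atf4 itself rose from 65.9 ± 4.57 to 161 ± 23.8 CPM (SD, n = 4 each; adjusted p = 0.000265), and the asparagine synthetase gene Asns by a log2 fold change of 4.68 (adjusted p = 5.55e-07). With Asns, the smallest p in that list belonged to Trib3, Mthfd2, Phgdh, Psat1 and Slc7a5, with log2 fold changes from 2.17 for Psat1 to 5.90 for Mthfd2. The p53, FoxO, glucocorticoid and hypoxia lists hold targets and also genes of the regulators: Trp53, Foxo1, Foxo3, Foxo4, Nr3c1, Hif1a and Epas1. Of 16 genes in the p53 list, 14 did not pass. Cdkn1a and Gadd45a rose, with log2 fold changes of 2.097 and 1.62 (adjusted p = 0.000147 and 0.000549). Of 13 genes in the FoxO list, 10 in the glucocorticoid list and 12 in the hypoxia list, 0 passed in either direction. Their median log2 fold changes were -0.01, -0.14 and -0.13. In lists this short, 0 is near the share over all genes. The smallest p in the FoxO list was that of the muscle ubiquitin ligase gene Trim63 (log2 fold change -0.21, adjusted p = 0.418) and in the glucocorticoid list that of the kinase gene Sgk1 (-0.30, adjusted p = 0.304). In the hypoxia list, which holds other genes known to respond like Ddit4, the glucose transporter gene Slc2a1 came first, at 8.24 to 11.9 CPM in non-transgenic and 12.3 to 13.8 CPM in transgenic hearts (log2 fold change 0.51, adjusted p = 0.141). Without NTG heart D it passed (0.64, adjusted p = 0.0128). Most of its list went the other way: 4 of the 12 hypoxia genes had a positive log2 fold change. The list summed to 2272 to 2430 CPM in non-transgenic and 1901 to 2215 CPM in transgenic hearts.

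The genes whose log2 CPM was most like that of Sesn2 over the 8 hearts were Dnajc18, Ccdc136, Uchl1, Pck2 and Snd1, with Pearson r of 0.99 each among 11871 genes. Of these, Ccdc136 (log2 fold change 1.43), Uchl1 (1.11), Pck2, the mitochondrial phosphoenolpyruvate carboxykinase (1.53), and Snd1 (1.11) rose, while Dnajc18 had 0.24 (adjusted p = 0.250). Those most like Deptor were Trim66, Dennd4a, Slc7a11, Tfcp2l1 and Dlg2, with r from 0.97 to 0.99, and all 5 rose. These r values are carried largely by the difference between genotypes. With each group's mean subtracted, the closest to Sesn2 were Itga3, Pi4k2a, Aatk, Cracr2b and Rps6ka4 (r from 0.98 to 0.99), and to Deptor Kif3a, Tapbpl, Wdr48, Bach1 and Gclc (r from 0.96 to 0.98), none of which passed the test. With 8 libraries and 11871 genes to choose from, values this high are a description only.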

How the data were processed

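RNA sequencing libraries of 8 mouse hearts were analysed. The deposited values are raw counts per Ensembl gene, 1 library per file, not normalized, per the file headers and values. The submitters' processing notes name cutadapt 1.15, TopHat2 and the build GRCm38 (mm10). The sources used here give no read counter, strand setting or annotation release. Symbols, coordinates and exon lengths came from GENCODE M21 on GRCm38, which held 13220 of 13227 identifiers.

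Counts were fitted in R 4.3.3 with edgeR 4.0.16: filterByExpr (13226 genes kept), TMM scaling, glmQLFit and a two-sided glmQLFTest between the groups, with p adjusted by Benjamini-Hochberg over all genes tested and a threshold of 0.05. Adjusted p-values are edgeR's where no tool is given. The SE is the absolute log2 fold change over the square root of F, and 95% intervals use the test's degrees of freedom. Log2 CPM of single libraries uses a prior count of 2. No replicate block was used.

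Levels per kilobase divide CPM by the union of annotated exons. Chi-square over its degrees of freedom was 19.7 or more for each pair of libraries within a group, so no library was counted as a repeat of another. Of 50-base words in the transcripts of Sesn1, Sesn2, Ddit4, Tsc1 and Eif4ebp2, 0 occurred in transcripts of another gene. The share was 0.399% for Sesn3, 2.87% for Eif4ebp1, 3.78% for Deptor and 8.14% for Tsc2.

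The brake genes and the lists were chosen with earlier results of these data known. Named from each list were members past the threshold, at most 6 by smallest p, or else the 1 with the smallest p. Named as alike were the 5 genes with the highest Pearson r to a member past the threshold. Chosen after their values were seen were Atf4, Akt1s1, Rheb, Depdc5, Igf1r, Prkab1, Ddit4l, Mtor, Eif4e and the marker genes given with values. Marker lists covered cardiomyocyte, atrial, endothelial, fibroblast, smooth muscle, macrophage, blood and adipocyte genes, with 0 members past the threshold in any. Bmp10, Tagln, Cd79a, Cd3e and Eif4ebp3 were not analysed here. Alternatives were other scalings and filters, DESeq2 1.42.0, limma 3.58.1 (voom), leaving out each library, leaving out non-transgenic heart D with transgenic heart A, and a block on heart letters.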

Additional observations from a re-analysis of the deposited data

Results flagged for a closer look

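In 52 groups of 4 hearts (brake genes, Fastkd1 and the genes named by rule), 6 had 1 heart far from the other 3, where chance gives about 1 in 20 groups. Ddit4 stood at 19.1 CPM in heart TG B against 15.8 to 16.1 CPM in the other transgenic hearts; without that heart its log2 fold change was 0.25 (edgeR adjusted p = 0.834). Tsc2 stood at 82.5 CPM in heart TG A against 99.4 to 102 CPM. Grb10 was also low in TG A, at 132 CPM against 173 to 175 CPM. Fastkd1 stood at 192 CPM in NTG heart D against 26.3 to 33.8 CPM, and Slc2a1 at 11.9 CPM in that heart against 8.24 to 8.51 CPM. The muscle ubiquitin ligase gene Trim63 stood at 223 CPM in heart TG E against 194 to 198 CPM.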

How the results depend on the processing

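Sesn2 passed the threshold under all 17 alternatives, with log2 fold changes of 1.89 to 2.26. Deptor passed under 16, at 0.78 to 0.94. The exception was the block on heart letters, where only letters A, B and E occur in both groups: 1 brake gene rose there, and Deptor had 0.88 (edgeR adjusted p = 0.0507). No label says that a shared letter pairs animals, so the letters were not taken as pairs. The deviations of same-lettered hearts correlated at 0.24, -0.12 and 0.39 for A, B and E. Of the 3 non-transgenic hearts, 0 correlated best with its own letter. With 3 letters these values cannot settle whether the hearts were paired. With library totals only, 3 brake genes rose, Eif4ebp1 being the third; 0 fell under any alternative. Ddit4, Sesn1, Sesn3, Tsc1, Tsc2 and Eif4ebp2 passed under 0 of 17.

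Over all genes, 133 rose and 32 fell. DESeq2 called 249 and 159, the block 103 and 21, and leaving out NTG D with TG A gave 170 and 106. Leaving out 1 library gave 103 to 168 that rose and 9 to 72 that fell. Of the pathway lists, 0 rose and 0 fell; DESeq2 called 1 higher (Gsk3b) and 1 lower (Mitf), leaving out 1 library gave 0 to 1 higher (Igf1r, without NTG heart D) and 0 to 1 lower (Prkab1, without NTG heart B), and leaving out hearts D and A together 1 higher (Igf1r).

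Brake genes with a log2 fold change near 0 changed sign without passing. Sesn1 had 0.037 with library totals only, and -0.085 to 0.014 over the sets without 1 library. Over those sets Tsc1 had -0.0093 to 0.020, Tsc2 -0.11 to 0.088 and Eif4ebp2 -0.0084 to 0.21. Tsc1 also had -0.0087 without NTG D and TG A, and Tsc2 -0.0014 with DESeq2 size factors and with DESeq2, and -0.0062 with upper quartile scaling. The cause was not tested. With 4 hearts a group, the intervals of Ddit4 and Eif4ebp1 start near 0; these genes had 410 counts or more in every library.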
